A study of Mus musculus with 32 samples.

Results

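The transcripts described here are 119 transcripts that rose after KCl depolarization in the inputs of Pan-TurboID neurons, followed into the PSD95 inputs, the Pan pulldowns and the PSD95 pulldowns of primary mouse cortical cultures. They were chosen from 51884 transcripts. Of these, 6357 had a length of at least 1000 and under 8000 nt and a mean of at least 200 estimated reads over the 32 libraries, and these are called eligible transcripts. A member was an eligible transcript whose log2(CPM + 1) was higher by 0.5 or more in the depolarized than in the resting Pan input of each of the 4 replicates. CPM is the estimated read count scaled to 1000000 reads outside the 3 most abundant transcripts, uc009sgd.1, uc012eno.1 and uc033jng.1, and the choice left out 2 further transcripts, uc007mqv.1 and uc007msi.2. Members are named by their UCSC transcript identifiers, since 0 identifiers could be paired with gene names here, and gene lists, cell type markers and sequences were therefore not used.

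Neurons of embryonic CD-1 mice carried a lentivirus that expressed TurboID, a biotin ligase, under doxycycline control, either fused to elements of PSD95, a scaffold of the postsynaptic density (TurboID-PSD95), or without a localization signal (Pan-TurboID). The tagged enzyme was made from an introduced construct that carries untranslated regions of PSD95, so it was not the endogenous protein. All cultures received cycloheximide for 2 minutes and biotin for 30 minutes. Resting cultures received no KCl, whereas activity in depolarized cultures was first blocked by 2 hours of tetrodotoxin and DL-AP5, after which they were exposed to 55 mM KCl (1 hour) and given 30 minutes to recover. After UV crosslinking, 15% of each lysate was kept as input, and RNA held by biotinylated proteins was recovered on streptavidin beads as the pulldown. The design thus had 8 groups of 4 libraries: resting and depolarized, Pan and PSD95, input and pulldown.

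Depolarization with KCl opens voltage-gated calcium channels, and the calcium that enters switches on activity-regulated genes, among them transcription factors of the early wave and effectors of synapses made later. Some of the transcripts of such genes travel into dendrites and are translated there. An input library reads the RNA of the whole lysate, whereas a PSD95 pulldown reads RNA bound by proteins close to the tagged enzyme in dendrites.

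Reads outside the 3 most abundant transcripts numbered 612945 to 17632500 per library, and the median member held 29 to 1160 estimated reads. In 6 libraries more than 50% of all reads fell on uc009sgd.1, 5 of them of replicate 3. The share of uc009sgd.1 was itself higher after KCl in each Pan-input replicate (2.36%, 11.5%, 44.8% and 22.5% of reads at rest, 6.69%, 17.2%, 59.0% and 84.8% after KCl, replicates 1 to 4), so this transcript would have met the threshold on the scale above. It was not counted as a member. In the PSD95 pulldowns its share was lower after KCl in each replicate (6.45%, 4.61%, 73.9% and 46.6% against 2.45%, 3.81%, 70.2% and 11.8%). The free-text descriptions of 8 libraries, all of replicate 2, name the opposite state from their titles and treatment field. The titles were kept.

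In the Pan inputs, which chose the members, the median rise of the 119 was 1.03, 1.15, 1.01 and 1.35 on the log2(CPM + 1) scale in replicates 1 to 4, and the mean rise of single members ran from 0.61 to 6.1. The eligible transcripts had medians of -0.05, -0.03, -0.02 and -0.14. These values follow from the choice and are given as a description. At the threshold, the member with the smallest margin, uc009opo.2, had a lowest replicate difference of 0.503, and the nearest transcript outside, uc012egq.1, had 0.496. Between 0.4 and 0.5 lay 54 further eligible transcripts, and 37 members lay between 0.5 and 0.6.

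The PSD95 inputs came from other plates, transduced with the other construct, and had no part in the threshold for the rise. Their reads did count in the mean over the 32 libraries that made a transcript eligible, and they share replicate numbers with the Pan inputs. There, 31 of 119 members (26.1%) rose after KCl and 0 fell (limma with quality weights, Benjamini-Hochberg adjusted p under 0.05). Among all transcripts tested, 0.722% were called higher, and among eligible transcripts 1.23% were called higher and 2.85% lower. At an unadjusted p under 0.05, 73 members (61.3%) were higher and 2 (1.68%) lower, against 9.31% and 15.2% of eligible transcripts, and edgeR and DESeq2 also called 0 members lower. The median log2 change was 0.69 over the members and -0.05 over the eligible transcripts, and the called members lay between 0.33 and 3.06. In lysates of whole cultures, more cells that hold a transcript and more of it in each cell cannot be told apart.

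Replicates differed in the size of this rise. The median member rose by 0.55, 0.27, 1.18 and 0.83 on the log2(CPM + 1) scale in replicates 1 to 4 of the PSD95 inputs, and the eligible transcripts had medians of 0.04, 0.05, -0.05 and 0.00. Replicate 2, whose labels disagree, had 67.2% of the members above 0 with its titles kept, against 80.7% to 90.8% in the others. Of eligible transcripts, 52.7% were above 0 in replicate 2 and 46.7% to 53.9% in the others. In 64 members (53.8%) all 4 replicates were above 0, against 12.5% of eligible transcripts, and in 38 members (31.9%) every depolarized library was above every resting one, against 4.15% of eligible transcripts. No member had all 4 depolarized PSD95 inputs below all 4 resting ones, against 3.85% of eligible transcripts.

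**Figure D1:**
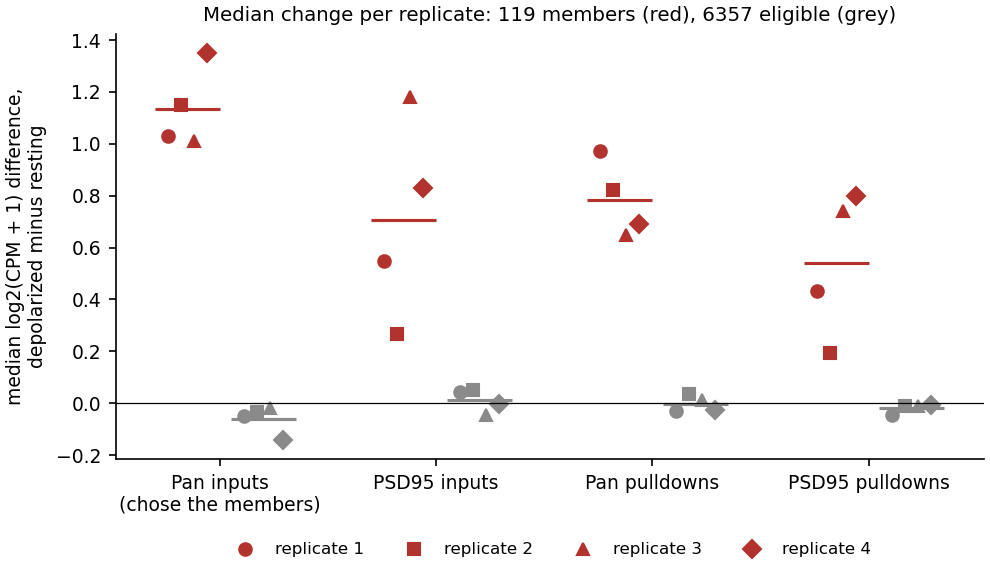
Median difference in log2(CPM + 1) between depolarized and resting libraries (y axis) in each replicate (symbols) of the Pan inputs, PSD95 inputs, Pan pulldowns and PSD95 pulldowns (x axis), with short lines at the mean of the 4 replicates. The members (red) lie above the eligible transcripts (grey) in each replicate of each fraction, from 0.195 in replicate 2 of the PSD95 pulldowns to 1.35 in replicate 4 of the Pan inputs.

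The member with the smallest p in the PSD95 inputs was uc009gzx.2 (5226 nt). It was at 42.8, 57.6, 41.6 and 48.1 CPM in the resting and at 149, 171, 146 and 176 CPM in the depolarized PSD95 inputs of replicates 1 to 4 (means 47.5 ± 7.31 and 161 ± 14.8, SD, n = 4). Each depolarized library was above each resting one, with a log2 change of 1.75 (SE 0.129, limma adjusted p = 0.000114). The groups were also apart in the pulldowns, where uc009gzx.2 went from 31.8 to 44.7 CPM at rest to 102 to 183 CPM in the Pan pulldowns (log2 1.60, limma adjusted p = 0.000323) and from 44.9 to 64.9 CPM to 98.6 to 151 CPM in the PSD95 pulldowns (log2 1.18, limma adjusted p = 0.00137).

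The next member, uc007ler.2 (3307 nt), was at 24.6, 29.0, 23.4 and 27.7 CPM in the resting PSD95 inputs and at 89.1, 88.2, 56.3 and 88.4 CPM in the depolarized ones. The lowest depolarized library, of replicate 3, was still above every resting library, and the log2 change was 1.59 (SE 0.156, limma adjusted p = 0.000682). In the Pan pulldowns its depolarized libraries (79.7 to 134 CPM) were also all above the resting ones (33 to 61.7 CPM), as they were in the PSD95 pulldowns (54.9 to 107 CPM against 22.5 to 37.1 CPM).

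The lowest fitted values in the PSD95 inputs belonged to members that were not called. uc033jlw.1 had a log2 change of -1.59 (SE 0.510, limma adjusted p = 0.165) and uc007jph.2 one of -0.86 (SE 4.51, limma adjusted p = 0.964). In the resting PSD95 inputs uc033jlw.1 was at 156, 162 and 101 CPM in replicates 1, 3 and 4 and near 0 in replicate 2. In the depolarized PSD95 inputs it was at 59.7 and 102 CPM in replicates 1 and 4 and at or near 0 in the others. uc007jph.2 likewise went from near 0 to 85.3 CPM among resting libraries, so neither member had a level that its replicates shared.

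The count of called members depended on the fit while the median did not change sign. edgeR's quasi-likelihood test called 5 members higher, DESeq2 called 40, and limma called 1 on the 8 PSD95 inputs alone, 14 without the 3 of the 16 fitted libraries in which uc009sgd.1 held over 50% of reads, 0 with the states of the descriptions, and 2, 16, 14 and 4 without replicates 1, 2, 3 and 4. Those 3 libraries are all of replicate 3, and only 1 of them is a PSD95 input, so leaving them out nearly repeats leaving out replicate 3. In the same order, these settings called 5, 189, 1, 25 and 0 eligible transcripts higher, the members included. Without replicates 1, 2, 3 and 4 they numbered 3, 21, 25 and 5. Library sizes without the 3 most abundant transcripts in place of TMM factors gave 40 members higher, and among eligible transcripts 153 higher and 165 lower against 78 and 181 with TMM factors.

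The Pan pulldowns came from the lysates whose inputs chose the members, so a response there and the choice cannot be told apart. There, 61 members (51.3%) were called higher after KCl and 1 lower, against 3.3% of all transcripts tested called higher and, among eligible transcripts, 5.13% higher and 8.95% lower. The median log2 change was 0.72 over the members and -0.10 over the eligible transcripts. By replicate the median member rose by 0.97, 0.82, 0.65 and 0.69 on the log2(CPM + 1) scale. In 52 members (43.7%) every depolarized library was above every resting one, against 6.17% of eligible transcripts. The count was 19 with edgeR, 60 with DESeq2, 54 without the 3 pulldowns over 50% uc009sgd.1, all of replicate 3, 1 with the states of the descriptions, and 3, 43, 54 and 33 without replicates 1, 2, 3 and 4. Library sizes without the 3 most abundant transcripts moved the eligible transcripts from 326 higher and 569 lower to 460 and 495. In the settings before that, in order, 36, 408, 175 and 1 eligible transcripts were called higher, the members included. Without replicates 1, 2, 3 and 4 they numbered 3, 117, 175 and 74.

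The smallest p in the Pan pulldowns belonged to uc009fgr.2 (1557 nt), which was at 73.7, 93.7, 63.3 and 69.9 CPM at rest and at 217, 196, 136 and 186 CPM after KCl (means 75.1 ± 13.1 and 184 ± 34.2, SD, n = 4). The groups did not overlap, and the log2 change was 1.33 (SE 0.0941, limma adjusted p = 4.49e-05). Its PSD95 inputs did not overlap either, with 57.6 to 116 CPM at rest and 140 to 183 CPM after KCl. Its PSD95 pulldowns did, since the depolarized library of replicate 3 (89.1 CPM) lay below 3 of the resting ones (94.7, 127, 61.7 and 90.1 CPM, replicates 1 to 4), and the log2 change there was 0.55 (SE 0.0995, limma adjusted p = 0.00597).

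A further member, uc008vbj.1 (2655 nt), had whole-number estimated counts in every library. Whether its reads also matched other transcripts was not examined. It was at 75.8, 67.5, 52.0 and 48.9 CPM in the resting and 169, 210, 116 and 178 CPM in the depolarized Pan pulldowns. The groups were apart, with a log2 change of 1.40 (SE 0.117, limma adjusted p = 0.000115), and in the PSD95 pulldowns the change was 0.68 (SE 0.129, limma adjusted p = 0.00783).

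The member called lower in the Pan pulldowns was uc008vka.2 (6139 nt). It was at 84.8, 163, 45.1 and 71.0 CPM at rest and 39.2, 60.8, 16.6 and 21.9 CPM after KCl, lower in each replicate although the groups overlapped (log2 -1.37, SE 0.356, limma adjusted p = 0.0408). In the Pan inputs the choice fixed a rise, and the same transcript went from 62.7, 22.4 and 63.6 CPM in replicates 1 to 3 and near 0 in replicate 4 to 113, 101, 183 and 83.6 CPM. The difference between its Pan input and Pan pulldown responses was not tested. edgeR and DESeq2 called 0 members lower here.

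**Figure D2:**
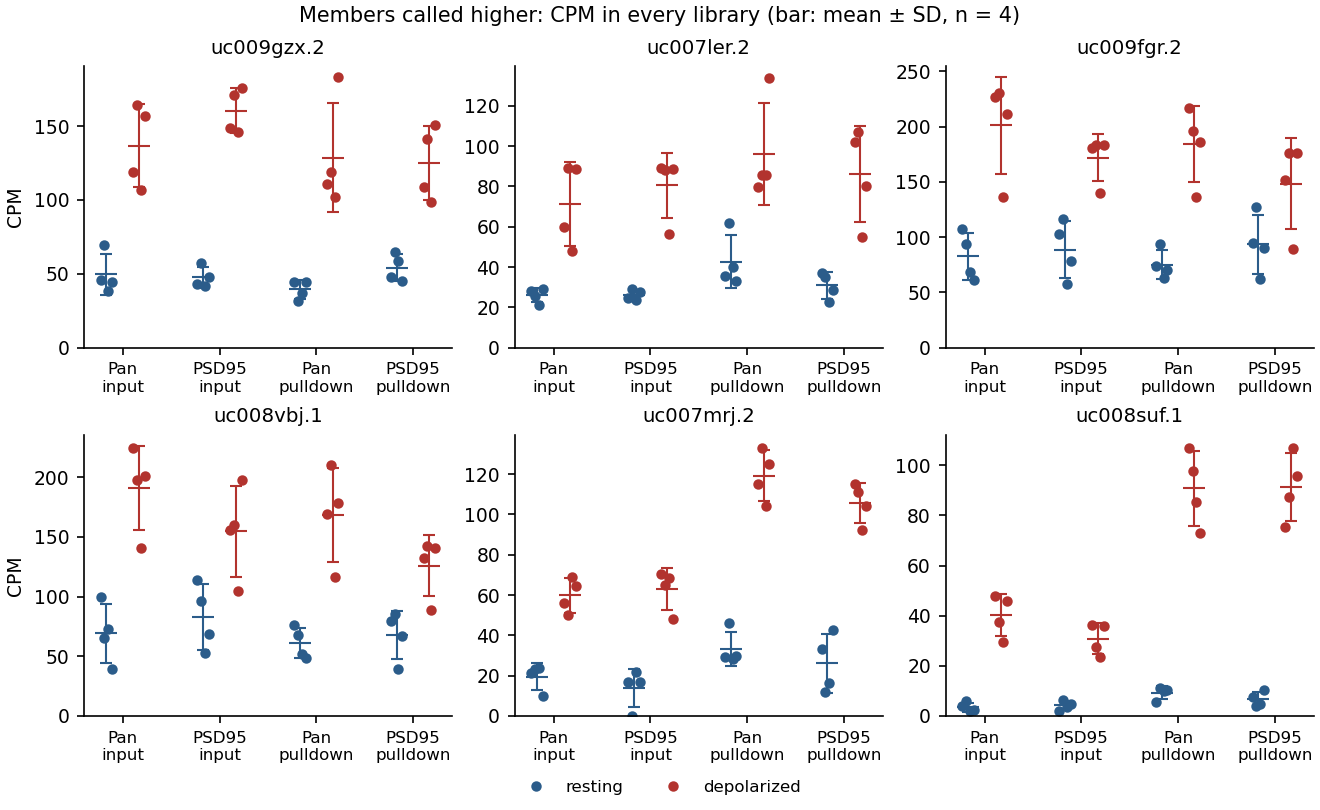
CPM (y axis, from 0) of 6 members called higher, in every resting (blue) and depolarized (red) library of the Pan inputs, PSD95 inputs, Pan pulldowns and PSD95 pulldowns (x axis), with mean and SD of 4 libraries. In uc009gzx.2, uc007ler.2, uc007mrj.2 and uc008suf.1 all depolarized libraries are above all resting ones in each fraction, while the groups overlap in the PSD95 pulldowns of uc009fgr.2 and the PSD95 inputs of uc008vbj.1.

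In the PSD95 pulldowns, which shared no lysate with the Pan inputs, 36 members (30.3%) rose after KCl and 2 fell. The fit also held the Pan pulldowns, from the lysates that chose the members, so these entered its replicate terms and pooled spread. Of all transcripts tested 3.89% were called higher, and of eligible transcripts 4.94% were called higher and 14.6% lower. The median log2 change was 0.39 over the members and -0.16 over the eligible transcripts. The median member rose by 0.43, 0.20, 0.74 and 0.80 on the log2(CPM + 1) scale in replicates 1 to 4. In the same order, 71.4%, 70.6%, 84.0% and 80.7% of members were above 0, against 46.5%, 48.9%, 48.4% and 49.3% of eligible transcripts. All 4 replicates were above 0 in 59 members (49.6%), against 14.7% of eligible transcripts, and the groups did not overlap in 36 (30.3%), against 5.3%.

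The smallest p here belonged to uc007mrj.2 (2065 nt), at 33.4, 12, 16.2 and 42.8 CPM in the resting and 115, 111, 92.5 and 104 CPM in the depolarized PSD95 pulldowns. The groups were well apart, with a log2 change of 1.76 (SE 0.209, limma adjusted p = 0.000615). In the Pan pulldowns it went from 29.4, 46.0, 28.5 and 29.6 CPM to 115, 133, 104 and 125 CPM. It was lower in the inputs of the depolarized cultures (49.9 to 69.1 CPM in Pan and 48.0 to 70.5 CPM in PSD95) than in their pulldowns, and its rise in the PSD95 inputs (log2 1.90, SE 0.464) missed the threshold with a limma adjusted p of 0.0694, 1 resting library there being at 0.

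The largest called change in the PSD95 pulldowns was that of uc008suf.1 (4305 nt), also with whole-number counts. It was at 7.37, 3.84, 4.75 and 10.5 CPM at rest and at 75.2, 87.4, 107 and 95.7 CPM after KCl (means 6.62 ± 3.01 and 91.4 ± 13.6, SD, n = 4), a log2 change of 3.44 (SE 0.420, limma adjusted p = 0.000705). The Pan pulldowns were close to this, with 5.61 to 11.2 CPM at rest and 72.8 to 107 CPM after KCl. Its inputs rose from 1.98 to 5.77 CPM to 29.5 to 48.0 CPM in Pan and from 2.03 to 6.40 CPM to 23.6 to 36.3 CPM in PSD95. The log2 change in the PSD95 inputs was 3.06 (SE 0.411, limma adjusted p = 0.00515), and the change in the PSD95 pulldowns exceeded it by 0.41 (SE 0.465, limma adjusted p = 0.903), which was within the error.

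The 2 members called lower in the PSD95 pulldowns were uc007bhx.1 and uc029uhu.1. uc007bhx.1 (5427 nt) was at 131, 92.8, 71.4 and 77.0 CPM at rest and 70.0, 27.8, 61.6 and 110 CPM after KCl, lower in replicates 1 to 3 and higher in replicate 4 (log2 -0.81, SE 0.203, limma adjusted p = 0.0313). uc029uhu.1 (2334 nt) was at 133, 150, 57.8 and 87.4 CPM at rest and 89.9, 108, 63.7 and 85.9 CPM after KCl (log2 -0.57, SE 0.154, limma adjusted p = 0.0424). The groups overlapped in both members, and edgeR and DESeq2 called neither.

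The count of members called higher in the PSD95 pulldowns was 14 with edgeR, 40 with DESeq2, 11 without the replicate block, 26 without the 3 pulldowns over 50% uc009sgd.1, 0 with the states of the descriptions, and 0, 14, 25 and 12 without replicates 1, 2, 3 and 4. With library sizes in place of TMM factors it was 47, and the eligible transcripts went from 314 higher and 931 lower to 565 and 689. In the settings before that, in order, 34, 261, 47, 164 and 0 eligible transcripts were called higher, the members included. Without replicates 1, 2, 3 and 4 they numbered 0, 61, 161 and 75.

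**Figure D3:**
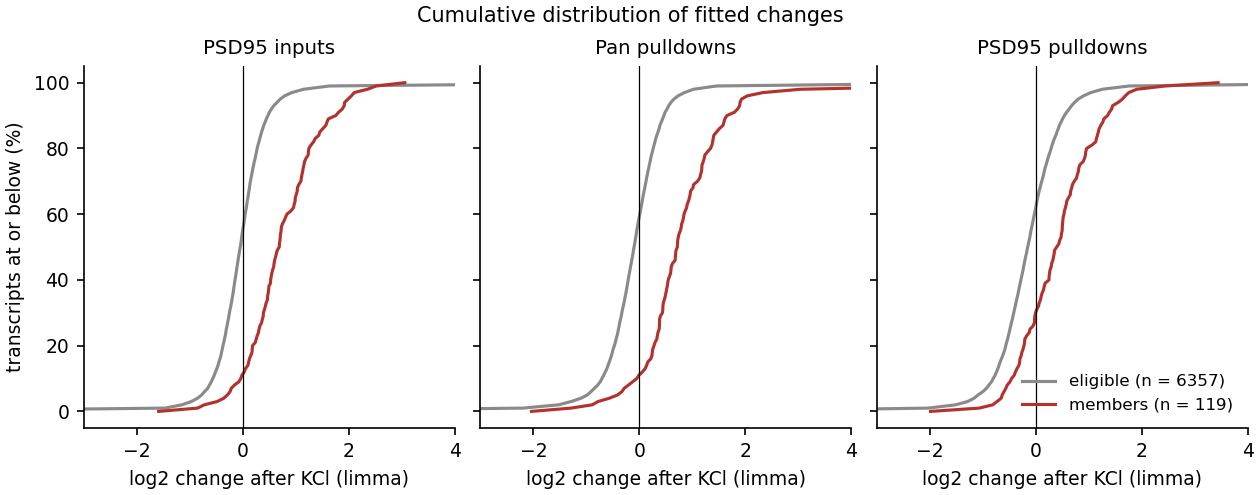
Share of transcripts at or below a given log2 change after KCl (y axis, %) against that change as fitted by limma (x axis, drawn from -3 to 4), for the 119 members (red) and the 6357 eligible transcripts (grey) in PSD95 inputs, Pan pulldowns and PSD95 pulldowns. The members' curve lies to the right of the grey one in all 3 panels, with medians of 0.69, 0.72 and 0.39 against -0.05, -0.10 and -0.16.

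Across the 3 fractions, 23 members were called higher in all, 19 in 2, 21 in 1 and 56 in none (19.3%, 16%, 17.6% and 47.1%), against 0.661%, 1.46%, 6.39% and 91.5% of eligible transcripts. Every one of the 31 members called in the PSD95 inputs was also called in the Pan pulldowns, where they made up 50.8% of the 61. Of the 36 called in the PSD95 pulldowns, 23 (63.9%) were among the 31 of the PSD95 inputs (74.2% of these) and 34 (94.4%) among the 61 of the Pan pulldowns (55.7% of these). Among eligible transcripts called in the PSD95 inputs, 76.9% were also called in the Pan pulldowns and 64.1% in the PSD95 pulldowns. Of eligible transcripts called in the PSD95 pulldowns, 15.9% were called in the PSD95 inputs and 34.7% in the Pan pulldowns. Of the 326 called in the Pan pulldowns, 60 were called in the PSD95 inputs and 109 in the PSD95 pulldowns. Both pulldown counts come from 1 fit. The fitted change was above 0 in all 3 fractions in 75 members (63.0%), against 19.5% of eligible transcripts, and in none in 4 members, uc007azy.1, uc008vka.2, uc009opo.2 and uc033jlw.1.

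The 23 members called in all fractions had log2 changes of 0.60 to 3.06 (median 1.25) in the PSD95 inputs, 0.60 to 3.26 (median 1.24) in the Pan pulldowns and 0.25 to 3.44 (median 1.12) in the PSD95 pulldowns. Besides uc009gzx.2, uc007ler.2, uc009fgr.2, uc008vbj.1 and uc008suf.1, they were uc007rvs.2, uc007rlb.3, uc009iic.2, uc007qmq.2, uc009nrc.2, uc008pkr.1, uc007pem.1, uc007dax.2, uc009gvu.3, uc008lts.3, uc008was.1, uc008bsd.2, uc008bvr.1, uc012ghn.2, uc009flk.1, uc007mpw.2, uc009iam.3 and uc009kuz.1. Of these, the 4 with the largest changes in the PSD95 inputs are given in values, chosen after the values were seen.

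In the PSD95 inputs uc009flk.1 (3776 nt) rose from 28.9, 45.3, 20.0 and 8.29 CPM to 103, 85.6, 158 and 116 CPM, and in the PSD95 pulldowns from 33.1, 38.7, 7.65 and 9.02 CPM to 86.7, 66.3, 106 and 116 CPM. uc007rlb.3 (2136 nt) rose from 39.7, 57.5, 31.0 and 19.2 CPM to 163, 187, 117 and 131 CPM in the PSD95 inputs and from 69.2, 70.1, 34.2 and 29.9 CPM to 198, 214, 98.8 and 183 CPM in the PSD95 pulldowns. In both members every depolarized library was above every resting one in both fractions. The log2 changes in the PSD95 pulldowns were 1.67 (SE 0.413, limma adjusted p = 0.0297) for uc009flk.1 and 1.56 (SE 0.194, limma adjusted p = 0.000777) for uc007rlb.3.

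uc007qmq.2 (1080 nt) and uc012ghn.2 (1840 nt) had whole-number counts. uc007qmq.2 rose from 42.8, 73.8, 27.0 and 25.4 CPM to 168, 175, 132 and 122 CPM in the PSD95 inputs and from 48.8, 80.4, 25.3 and 24.5 CPM to 130, 162, 86.0 and 124 CPM in the PSD95 pulldowns. uc012ghn.2 rose from 179, 261, 56.9 and 48.1 CPM to 509, 456, 324 and 364 CPM and from 192, 304, 74.3 and 65.0 CPM to 330, 465, 306 and 409 CPM. The groups were apart in both members. For uc012ghn.2 the log2 change was 1.92 (SE 0.349) in the PSD95 inputs and 0.92 (SE 0.198) in the PSD95 pulldowns.

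The 2 members called in the PSD95 pulldowns and in neither other fraction were uc009nxx.2 and uc007yjq.1. Of the 314 eligible transcripts called higher in the PSD95 pulldowns, 109 were also called in the Pan pulldowns and 50 in the PSD95 inputs. In all 3 fractions 42 eligible transcripts were called. uc009nxx.2 (2116 nt) was at 26.3, 28.6, 25.3 and 23.8 CPM at rest and 49.5, 60.6, 45.8 and 43.6 CPM after KCl in the PSD95 pulldowns (log2 0.80, SE 0.144, limma adjusted p = 0.00586), against 26.7, 52.1, 28.3 and 24.6 CPM and 32.6, 43.7, 36.1 and 32.1 CPM in the Pan pulldowns (log2 0.22, SE 0.142). The difference between these responses was 0.58 (SE 0.203, limma adjusted p = 0.295). In uc007yjq.1 the corresponding difference was 0.56 (SE 0.315, limma adjusted p = 0.510), so neither member was shown to respond differently in the pulldowns.

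**Figure D4:**
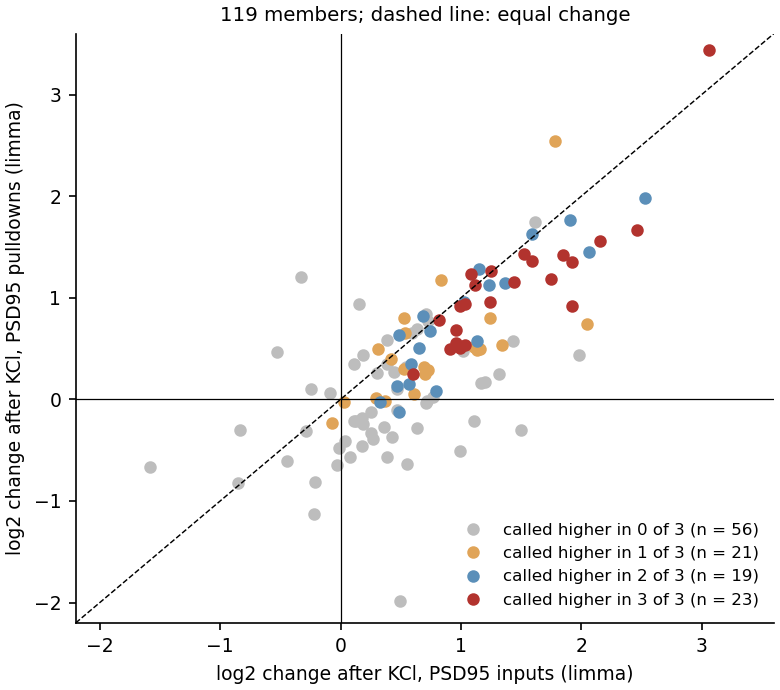
Log2 change after KCl as fitted by limma in the PSD95 inputs (x axis) and the PSD95 pulldowns (y axis) for the 119 members, coloured by the number of fractions, of PSD95 inputs, Pan pulldowns and PSD95 pulldowns, in which they were called higher. The dashed line marks equal change, and the 23 members called in all 3 fractions (red) spread along it up to 3.06 and 3.44.

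The question whether the rise differed between fractions was put to the difference of the responses itself. The response of the PSD95 pulldowns was set against that of the PSD95 inputs, and neither entered the threshold of the choice. Here 0 of 119 members were called in either direction by limma, edgeR and DESeq2. Of eligible transcripts, limma called 0% higher and 0.0157% lower. At an unadjusted p under 0.05, 23 members (19.3%) had a smaller response in the pulldown and 1 a larger one, against 8.13% and 2.14% of eligible transcripts. The median difference was -0.35 over the members and -0.09 over the eligible transcripts, and 92 members (77.3%) were below 0, against 60.3%. Computed per replicate on the log2(CPM + 1) scale, the members' medians were -0.13, -0.07, -0.28 and -0.11, a smaller difference than the fitted one. The eligible transcripts had -0.0978, -0.0562, 0.0388 and -0.00391, so in replicates 1 and 2 the members lay close to them. The count of 23 was 6 without replicate 1, 7 without the replicate block and 3 with edgeR.

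The members with the most extreme fitted differences here had large errors. uc008kus.2 had 1.42 (SE 0.592, limma adjusted p = 0.703), uc007jph.2 had 1.14 (SE 5.03), uc007rnn.1 had -2.27 (SE 2.34) and uc007iem.2 had -2.15 (SE 0.864, limma adjusted p = 0.692). uc007iem.2 (4492 nt) held the most estimated reads of any member (a mean of 45050) and varied widely between replicates, from 2440 to 62000 CPM in the Pan inputs and from 1800 to 40500 CPM in the PSD95 pulldowns. Its highest value, in the depolarized Pan input of replicate 4, was in the library where uc009sgd.1 held 84.8% of reads, and the part of that library in the value was not tested. Chosen after their values were seen, uc009abn.2, uc007xby.1, uc009qtl.1 and uc007koa.2 also had their highest Pan input there (2380, 966, 405 and 442 CPM). Their highest PSD95 inputs were of depolarized replicate 3 (1340, 544, 235 and 275 CPM), where uc009sgd.1 held 78.9% of reads. In uc009gzx.2 the highest Pan input was that of depolarized replicate 2 (164 CPM). Whether members follow uc009sgd.1 was not tested.

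For the PSD95 pulldowns against the Pan pulldowns, 0 members were called in either direction by limma, against 0.0157% of eligible transcripts called higher and 0.0472% lower. edgeR also called 0, and DESeq2 called 0 higher and 6 lower. At an unadjusted p under 0.05, 39 members (32.8%) had a smaller response in the PSD95 pulldown and 3 a larger one, against 11.7% and 7.11% of eligible transcripts. The median difference was -0.35 over the members and -0.06 over the eligible transcripts. The replicates did not share this difference: the members' median on the log2(CPM + 1) scale was -0.53 and -0.45 in replicates 1 and 2 and 0.17 and 0.06 in replicates 3 and 4. The count of 39 was 5 without replicate 1 and 9 without the replicate block, and the median of -0.35 was -0.11 without replicate 1 and -0.52 without replicate 3. Since the Pan lysates chose the members, a smaller response elsewhere and the choice cannot be told apart in this comparison.

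The widest fitted differences between the pulldowns again had large errors, and none was called. uc008pwz.3 had -8.48 (SE 6.80), uc007bxn.2 had -6.74 (SE 2.85, limma adjusted p = 0.391), uc007jnz.1 had 2.61 (SE 4.03) and uc008kus.2 had 1.60 (SE 0.729, limma adjusted p = 0.418). uc007bxn.2 (3075 nt) was at 30.4, 115, 78.4 and 57.9 CPM in the resting PSD95 pulldowns, whereas 3 of its resting Pan pulldowns were under 0.3 CPM and that of replicate 2 was at 130 CPM. uc008kus.2 (5905 nt) was at 90.2, 97.2 and 37.0 CPM in the resting PSD95 pulldowns of replicates 1, 2 and 4, near 0 in replicate 3, and at 142, 122, 116 and 207 CPM after KCl.

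Before depolarization, the members were compared between the PSD95 and Pan pulldowns, the contrast that marks dendritic enrichment. No member was called by limma, against 0.0157% of eligible transcripts called higher and 0.0157% lower, edgeR called 0 and DESeq2 called 1 higher. The median difference was 0.19 over the members and -0.02 over the eligible transcripts. At an unadjusted p under 0.05, 23 members (19.3%) were higher in the PSD95 pulldown and 0 lower, against 6.04% and 7.61% of eligible transcripts, and the count of 23 was 5 without replicate 1 and 5 without the replicate block. The per-replicate medians were 0.24, 0.16, 0.03 and 0.01 on the log2(CPM + 1) scale. Extreme values were 8.20 (SE 2.84) for uc007bxn.2, 3.09 (SE 4.73) for uc008pwz.3, -1.0 (SE 0.647) for uc008kus.2 and -0.92 (SE 0.853) for uc007unb.2. The resting Pan pulldowns come from the lysates of the resting Pan inputs, which the choice required to be low, and the share of this in the difference cannot be told apart.

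Within the PSD95 cultures at rest, 1 member was called higher in the pulldown than in the input and 10 were called lower, against 4.67% and 11.2% of eligible transcripts. The median difference was -0.01 over the members and -0.19 over the eligible transcripts, and in the other scaling that used library sizes it became 0.13, while the median of all transcripts tested moved from 0.08 to 0.23. The 10 lower members differed by -0.74 to -0.32. Their clearest case was uc009ajk.2 (1920 nt), with 1510, 1720, 1600 and 1770 CPM in the resting inputs and 1210, 1130, 977 and 1160 CPM in the resting pulldowns, which did not overlap (log2 -0.55, SE 0.0590, limma adjusted p = 0.000457). After KCl uc009ajk.2 rose in the PSD95 inputs to 2050, 1940, 2110 and 2370 CPM (log2 0.33, limma adjusted p = 0.00659). Its PSD95 pulldowns, at 1250, 1270, 1150 and 1420 CPM, were also above rest in each replicate, whereas the fitted change was -0.03 (SE 0.0798). In these pulldowns the eligible transcripts had a fitted median of -0.16. Per replicate their medians on the log2(CPM + 1) scale were -0.05, -0.01, -0.01 and -0.01.

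uc033iut.1 (1274 nt) had the same order, with 663, 611, 499 and 764 CPM in the resting PSD95 inputs and 494, 467, 376 and 508 CPM in the pulldowns (log2 -0.55, SE 0.0867, limma adjusted p = 0.00367). It rose in the PSD95 inputs by 0.47 (SE 0.0735, limma adjusted p = 0.00955) and in the Pan pulldowns by 0.51 (SE 0.0789, limma adjusted p = 0.003), and in the PSD95 pulldowns it changed by 0.13 (SE 0.0880, limma adjusted p = 0.403). In CPM its PSD95 pulldowns were above rest in each replicate, at 557, 525, 503 and 767 CPM after KCl. The difference between PSD95 pulldown and input responses was -0.34 (SE 0.0748, limma adjusted p = 0.408) for uc009ajk.2 and -0.31 (SE 0.110, limma adjusted p = 0.654) for uc033iut.1, so a smaller response in the pulldown was not shown for either. The member that was higher in the pulldown, uc007fek.1 (1422 nt), was at 104, 110, 34.7 and 118 CPM in the resting inputs and 180, 180, 77.4 and 206 CPM in the resting pulldowns (log2 0.66, SE 0.175, limma adjusted p = 0.0487), higher in each replicate with overlapping groups.

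Length entered the choice only as limits. The members' median length was 3103 nt against 3626 nt for the eligible transcripts, with 22.7% of members and 14.6% of eligible transcripts under 2000 nt. The median log2 change in the PSD95 inputs was 0.47 for these 27 shorter members, 0.70 for the 52 from 2000 to under 4000 nt and 0.71 for the 40 longer ones, and in the PSD95 pulldowns it was 0.15, 0.50 and 0.43. Eligible transcripts of these lengths had medians of 0.02, -0.03 and -0.10 in the PSD95 inputs and -0.10, -0.15 and -0.18 in the PSD95 pulldowns. Whole-number estimated counts in every library were found in 24 members (20.2%) and in 15.1% of eligible transcripts. Of these 24, 8 (33.3%) were called higher in the PSD95 inputs, 18 (75%) in the Pan pulldowns and 10 (41.7%) in the PSD95 pulldowns, against 2.28%, 9.76% and 5.4% of the 963 eligible transcripts with such counts.

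Estimated counts dropped to 0 in some members. In 21 members (17.6%) at least 1 of the 32 libraries held 0 reads, against 17.7% of eligible transcripts. Of these 21, 17 (81.0%) were called in no fraction and 0 in all 3, against 97.0% and 0% of the 1126 eligible transcripts with a library at 0. Of the 98 members with an estimate above 0 in every library, 39 (39.8%) were called in no fraction and 23 (23.5%) in all 3. Of such eligible transcripts it was 90.3% and 0.803%. The median rise in the Pan inputs, the measure that chose the members, was 2.54 and 1.14. An example is uc008pwz.3 (7533 nt), which was at or near 0 in all 4 resting Pan inputs. After KCl it was at 26.9, 215, 58.9 and 60.1 CPM there, while its resting PSD95 inputs ranged from 0 to 78.6 CPM. The split was made at exactly 0, so the 98 still hold members that came near it. One such member, uc007bxn.2, had a lowest value of 1.85e-08 estimated reads in the depolarized Pan pulldowns.

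The size of the rise in the Pan inputs was weakly related to that elsewhere. Across the 119 members Pearson's r between the mean rise in the Pan inputs and that in the PSD95 inputs was 0.241 (Spearman's rho 0.328), with the Pan pulldowns of the same lysates it was 0.175 (rho 0.227), and with the PSD95 pulldowns it was -0.04 (rho 0.185). Between PSD95 inputs and PSD95 pulldowns, which share lysates, r was 0.553 (rho 0.585). Between PSD95 inputs and Pan pulldowns, which do not, it was 0.643 (rho 0.566), and between Pan and PSD95 pulldowns 0.493 (rho 0.497). These are descriptions across transcripts, which are not independent, share the depth of their libraries, and were cut at 0.5 in the Pan inputs.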

How the data were processed

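RNA from inputs and streptavidin pulldowns, about 100 ng per library, entered a stranded protocol with ribosomal RNA depletion. The authors quantified reads with salmon against mm10 UCSC knownGene models and deposited 1 file per library, in which expected counts split reads that match several transcripts among them. DESeq and limma are further tools in the submitters' notes on processing. Which salmon version was run is not given in the sources used here. Deposited TPM values were not used.

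Groups and replicate numbers came from the titles. Expected counts were rounded to whole numbers and tested in R 4.3.3 by voomWithQualityWeights of limma 3.58.1, after filterByExpr and TMM scaling (edgeR 4.0.16), group and replicate number as terms, and Benjamini-Hochberg adjustment at 0.05 over all transcripts tested. PSD95 inputs, and PSD95 pulldowns set against them, were fitted on the 16 PSD95 libraries, so that no Pan library that chose members entered. An input and its pulldown come from the same lysate, but the fit had no term for the lysate and took them as separate libraries. The comparisons of pulldowns were fitted on the 16 pulldowns. The tests were run on simulated counts before use. A transcript was said to have whole-number counts where each library's value differed from an integer by at most 0.001.

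The study's methods state that samples of a biological replicate were processed together, so replicate number is a block. For pairs of libraries that share a number, the mean correlation of deviations from group means was 0.137 (PSD95 libraries) and 0.127 (pulldowns), and for pairs that do not it was -0.042 and -0.039. Deviations from group means cancel within each group, so the second pair of means is tied to the first. Single pairs that share a number ran from 0.0134 to 0.253 (PSD95 libraries) and from -0.00258 to 0.301 (pulldowns). Pan and PSD95 libraries of 1 number were taken to be from the same biological replicate, which these values do not show. With the block, p-values measure the spread left within groups after replicate number is fitted, pooled over the 4 groups of a fit.

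The members, the lists and the tests were chosen with earlier results of these data known. Named members are, per comparison, the 2 with the smallest p among those called in each direction, otherwise the 2 most extreme values, plus those nearest to the threshold. Others are said to be chosen after their values were seen. Alternatives were DESeq2 1.42.0, the quasi-likelihood test of edgeR, other scalings, filters, weights and libraries, the states in the descriptions, and each replicate left out. Figures were drawn with matplotlib 3.10.9.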

Additional observations from a re-analysis of the deposited data

Results flagged for a closer look

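In 56 sets of 4 values (the libraries of each group for 6 members called higher, and the per-replicate medians of the members in 8 comparisons), 4 had a highest or lowest value whose gap to its nearest neighbour exceeded Dixon's 95% critical value as a share of the group's range, and chance gives about 1 such set in 20. uc007ler.2 was at 134 CPM in the depolarized Pan pulldown of replicate 4, against 79.7 to 85.7 CPM in the others, and at 56.3 CPM in the depolarized PSD95 input of replicate 3, against 88.2 to 89.1 CPM. uc009fgr.2 was at 140 CPM in the depolarized PSD95 input of replicate 3, against 181 to 183 CPM. uc007mrj.2 was at 46.0 CPM in the resting Pan pulldown of replicate 2, against 28.5 to 29.6 CPM. In each case the depolarized libraries stayed above the resting ones with that library included. Both low libraries are the depolarized PSD95 input of replicate 3, in which uc009sgd.1 held 78.9% of reads, and its part in the values was not tested.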

How the results depend on the processing

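The median changes of the 119 members after KCl kept their sign in every alternative fit: 0.51 to 0.89 in the PSD95 inputs, 0.58 to 0.81 in the Pan pulldowns and 0.24 to 0.50 in the PSD95 pulldowns. Other member lists moved them to 0.51 to 1.09, 0.55 to 1.14 and 0.21 to 0.60. Counts of called members did not hold as well, and why was not tested, except that a setting with fewer libraries has less to test with. Members called higher in the PSD95 inputs, Pan pulldowns and PSD95 pulldowns numbered 31, 61 and 36 in the reported fits, 5, 19 and 14 with edgeR, 15, 42 and 11 without the replicate block, 0, 1 and 0 with the states of the descriptions, 14, 54 and 26 without the libraries over 50% uc009sgd.1 (3 in each fit, all of replicate 3), and 2 to 16, 3 to 54 and 0 to 25 with a replicate left out. The lowest of each range was without replicate 1. The 8 PSD95 inputs alone gave 1. Among eligible transcripts, the members included, 78, 326 and 314 were called higher in the reported fits and 5, 36 and 34 with edgeR. The numbers were 19, 102 and 47 without the replicate block and 0, 1 and 0 with the states of the descriptions. Without the libraries over 50% uc009sgd.1 they were 25, 175 and 164. With a replicate left out they were 3 to 25, 3 to 175 and 0 to 161. On the 8 PSD95 inputs alone 1 eligible transcript was called higher. With other member thresholds, 0.4 or 0.75 in each replicate or a mean of at least 500 reads, 19.1% to 38.6% were called in the PSD95 inputs, 46.2% to 63.2% in the Pan pulldowns and 23.1% to 42.9% in the PSD95 pulldowns. Counting uc009sgd.1 as a member, an alternative chosen after seeing the data, gave 25.8%, 51.7% and 30%.

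Members called lower numbered 1 in the PSD95 inputs with all 16 inputs, with all 32 libraries and with a filter at 5 mean CPM. In the Pan pulldowns they numbered 0 in place of 1 with all 32 libraries, DESeq2, edgeR, no block, the descriptions' states, without those 3 libraries and with any replicate left out. In the PSD95 pulldowns, in place of 2, they numbered 0 with all 32 libraries, DESeq2, edgeR, no block and the descriptions' states, 1 with library sizes in place of TMM, a mean CPM of 5, no filter or no quality weights, and 0 to 2 with a replicate left out.

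For the PSD95 minus Pan pulldown response, members called lower were 3 with all 32 libraries, 6 with DESeq2, 2 without a filter and 1 with the descriptions' states. For the PSD95 pulldown minus input response, 1 was called lower without a filter, and the median of -0.35 became -0.16 with DESeq2, -0.21 with edgeR, -0.24 without quality weights, -0.24 without those 3 libraries and -0.38 to -0.21 with a replicate left out. In PSD95 against Pan pulldowns at rest, 1 was called higher with all 32 libraries, DESeq2 and the descriptions' states.

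The PSD95 pulldown against input at rest was the least steady. Called higher were 2 with all 32 libraries, 3 with DESeq2, 3 with library sizes, 4 with a mean CPM of 5, 2 with RLE, 0 with edgeR, no filter, no block, the descriptions' states and without those 3 libraries, and 0 to 1 with a replicate left out. Called lower were 2 with edgeR, 6 with library sizes, 1 without the block, 6 without those 3 libraries and 1 to 7 with a replicate left out. Its median of -0.01 became -0.17 with edgeR, 0.13 with library sizes, 0.15 with a mean CPM of 5, 0.0906 with RLE, -0.0888 without those 3 libraries and -0.15 to 0.12 with a replicate left out.

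Among single members, 320 of 396 values stayed on the same side of the threshold, 54 lost and 3 gained a call, and 19 turned sign, none of them a called one. Only results called in the reported fits could lose a call, and many of the 396 values belong to results that were not called. The 54 are therefore not to be read as a share of 396. In the PSD95 pulldown minus input response uc007iem.2 became 0.49 with edgeR, 0.58 with DESeq2 and 0.0272 without the block, and uc007jph.2 became -0.50, -0.44 and -4.01 with edgeR, DESeq2 and the descriptions' states and ran from -3.51 to 7.43 with a replicate left out (-3.43 without replicate 2). In the PSD95 inputs uc007jph.2 ran from -4.31 to 3.2 (without replicate 1) with a replicate left out and became 1.01 on the 8 inputs alone. In the PSD95 minus Pan pulldown response uc007jnz.1 became -2.39 with edgeR and -2.56 with DESeq2, and uc008pwz.3 became 5.91 with the descriptions' states. At rest between pulldowns uc008pwz.3 became -3.71 with edgeR, -2.73 with DESeq2, -0.97 without the block and -5.29 with the descriptions' states, and uc007unb.2 became 0.26 with a mean CPM of 5 and ran from -2.68 to 0.297 (without replicate 4) with a replicate left out. Depth limits the members most in the resting PSD95 pulldown of replicate 3, where the median member had 29 reads and 22 members had under 10.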
